A study of Bos taurus with 21 samples.

Results

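The endometrium lines the uterus and is built of a luminal epithelium, glands that open into it, and a stroma with vessels and leukocytes. In cattle its glands and epithelium secrete the fluid that feeds the conceptus before it attaches, and the tissue responds to progesterone in both the cycle and early pregnancy. A small number of transcripts can supply a disproportionate part of the sequenced RNA of a tissue. Those that keep a similar level across conditions set the background against which a response is measured. Such transcripts are described here for bovine endometrium: 49 of 28054 transcripts had a mean of at least 1000 CPM (the read count of a transcript divided by the library total and multiplied by 1000000) over 20 heifers and differed by less than 0.7 in mean log2(CPM + 1) in each of 4 comparisons. The comparisons were pregnant against cyclic heifers at day 16 and at day 13, and day 16 against day 13 in pregnant and in cyclic heifers. The members were thus chosen by their measured levels and group differences, so abundance and small group differences are what defines these transcripts and not a finding about them.

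All animals were cross-bred beef heifers, mainly Charolais and Limousin crosses, whose cycles had been synchronised with vaginal progesterone and an analogue of prostaglandin F2α. The groups were 5 pregnant heifers at day 16, 5 cyclic heifers at day 16, 5 pregnant heifers at day 13 and 5 cyclic heifers at day 13. Pregnant heifers had been inseminated and had yielded a conceptus of the right stage, and cyclic heifers had not been inseminated. Endometrium, for the most part intercaruncular, came from the uterine horn next to the corpus luteum. Total counts ranged from 1256870 to 3764342 per library. A second library labelled pregnant day 16 heifer 12 was left out of the choice of transcripts and is described at the end. Letters A to D stand for a number that the names of several deposited files share, whose meaning is not given in the sources used here. Letter A held 6 heifers, B 6, C 7 and D 1.

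The files give Ensembl bovine transcript identifiers without gene names, and 0 of them could be paired with the RefSeq table used here. No gene name, role, sequence or length is therefore given for any transcript, the tissue and its cell types could not be checked against marker genes, and the transcripts are named by identifier. Without lengths, the order of transcripts by CPM is an order of read counts and not of RNA molecules. In whole tissue, a level set by the number of cells of a type and one set by the RNA in each cell cannot be told apart.

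The 49 transcripts held 8.81% ± 0.388 (SD, n = 20) of all counts. The share per heifer ran from 8.05% in pregnant day 16 heifer 1 (exact 95% binomial interval 8.00% to 8.10%, counting error only) to 9.46% in pregnant day 13 heifer 9 (9.43% to 9.49%). Both intervals are far narrower than the distance between these 2 heifers. Intervals of heifers with close shares overlapped, such as 8.99% to 9.06% in pregnant day 16 heifer 4 and 8.99% to 9.07% in cyclic day 16 heifer 7. The 10 most abundant of the 49 held 2.94% ± 0.226 (SD, n = 20) of all counts, and the other 39 held the rest of the share. Means of the 49 ran from 1024 to 4321 CPM with a median of 1564 CPM, and the lowest count behind any value was 878 reads.

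By group, the share was 8.05%, 9.03%, 8.78%, 8.23% and 8.81% in pregnant day 16 heifers 1, 4, 6, 12 and 19, against 9.42%, 9.03%, 9.07%, 8.84% and 9.09% in cyclic day 16 heifers 3, 7, 15, 16 and 17. It was 8.94%, 9.46%, 8.39%, 8.57% and 8.24% in pregnant day 13 heifers 2, 9, 11, 14 and 20, against 9.03%, 8.43%, 8.80%, 9.16% and 8.92% in cyclic day 13 heifers 5, 8, 10, 13 and 18. The groups overlapped at both days. Means were 8.58% ± 0.415 in pregnant and 9.09% ± 0.212 in cyclic heifers at day 16, and 8.72% ± 0.490 in pregnant and 8.87% ± 0.281 in cyclic heifers at day 13 (SD, n = 5 each). No test was made, since the choice of transcripts limits these differences.

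The mean share also differed between file letters, which was not tested. The share ranged from 8.05% to 9.07% in letter A, 8.24% to 9.16% in B and 8.43% to 9.46% in C, so they overlapped. It averaged 8.52% ± 0.373 (SD, n = 6) in letter A, 8.85% ± 0.323 (n = 6) in letter B and 9.01% ± 0.367 (n = 7) in letter C, and was 9.03% in the heifer of letter D. Within letter A it was 8.05% and 8.23% in the 2 pregnant heifers and 9.07% in the cyclic heifer at day 16. The 8.23% is that of library 1 of heifer 12, and the second library with that label, also of letter A, had 8.73%. Within letter C it averaged 8.90% in 2 pregnant and 9.12% in 3 cyclic heifers at day 16. In letter C the groups overlapped, at 8.78% and 9.03% in pregnant and 8.84% to 9.42% in cyclic heifers. The part of the letters in the pooled difference was not tested. At day 13 the difference had no single direction: pregnant heifers averaged 8.48% against 8.80% in cyclic heifers in letter A (2 and 1), 8.59% against 9.04% in letter B (2 and 3), and 9.46% against 8.43% in letter C (1 and 1).

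**Figure D1:**
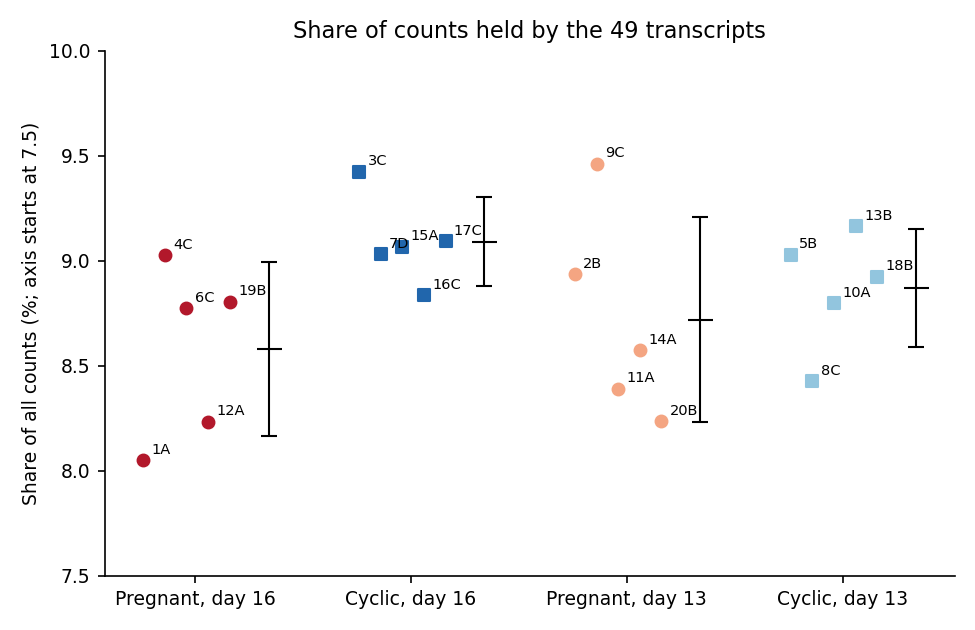
Share of all counts (percent, vertical axis from 7.5) held by the 49 transcripts in each heifer, by group, with heifer numbers and file letters beside the points and the group mean and SD at the right of each group. The shares lie between 8.05% and 9.46% and the groups overlap.

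The identifiers were not 49 separate measurements. Deviations from the group means over 20 heifers correlated at over 0.99 in 8 pairs, which joined 13 identifiers into 6 sets, 5 of 2 and 1 of 3. In 7 of these pairs the ratio of the 2 counts varied less between heifers than separate reads would allow, where the chi-square divided by its degrees of freedom was 0.0492 to 0.404 and independent sampling of a constant ratio gives about 1. ENSBTAT00000055086 and ENSBTAT00000023122, the closest pair, kept a ratio of 1.03 to 1.05 in all 20 heifers at means of 1564 and 1506 CPM. The counts of such pairs are thus not independent of each other. How reads shared by several transcripts were assigned is not given in the sources used here, and its part in these ratios was not tested. The eighth pair, ENSBTAT00000004562 and ENSBTAT00000004560, had a correlation of 0.992 and a scaled chi-square of 3.37, so its ratio varied more than sampling alone. Among the other 1168 pairs the highest correlation was 0.962 and the lowest scaled chi-square was 7.64. No identifier among the 49 had exactly the counts of another in all 21 libraries. With the most abundant identifier of each set kept, 42 remained, and they held 7.70% ± 0.308 (SD, n = 20) of all counts. That share averaged 7.49% ± 0.343 in pregnant and 7.91% ± 0.131 in cyclic heifers at day 16, and 7.66% ± 0.369 in pregnant and 7.75% ± 0.256 in cyclic heifers at day 13 (SD, n = 5 each).

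ENSBTAT00000028617 was the most abundant of the 49, with 4321 CPM ± 969 (SD, n = 20), and had the highest count of all transcripts in 14 of the 20 heifers. It had 3736, 5365, 2543, 3557 and 3687 CPM in pregnant day 16 heifers 1, 4, 6, 12 and 19, against 4564, 5079, 3244, 4324 and 4395 CPM in cyclic day 16 heifers 3, 7, 15, 16 and 17. It had 5249, 4139, 5307, 2697 and 4837 CPM in pregnant day 13 heifers 2, 9, 11, 14 and 20, against 4555, 4458, 3668, 6599 and 4407 CPM in cyclic day 13 heifers 5, 8, 10, 13 and 18. The groups overlapped, and the lowest values were those of pregnant heifers 6 and 14. In these 2 heifers it ranked 11 and 7, against 1 to 3 in the other 18. Its within-group SD was 0.34 on the log2(CPM + 1) scale, so the most abundant transcript was not among the tightest.

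In 19 of the 20 heifers the transcript with the highest count was among the 49. The exception was library 1 of pregnant day 16 heifer 12, in which ENSBTAT00000006478 came first with 4283 CPM. In the second library labelled heifer 12, ENSBTAT00000006478 had 1749 CPM and ENSBTAT00000028617 came first. ENSBTAT00000006478 had a mean of 1926 CPM over the 20 heifers and passed the difference limit between days in cyclic heifers.

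**Figure D2:**
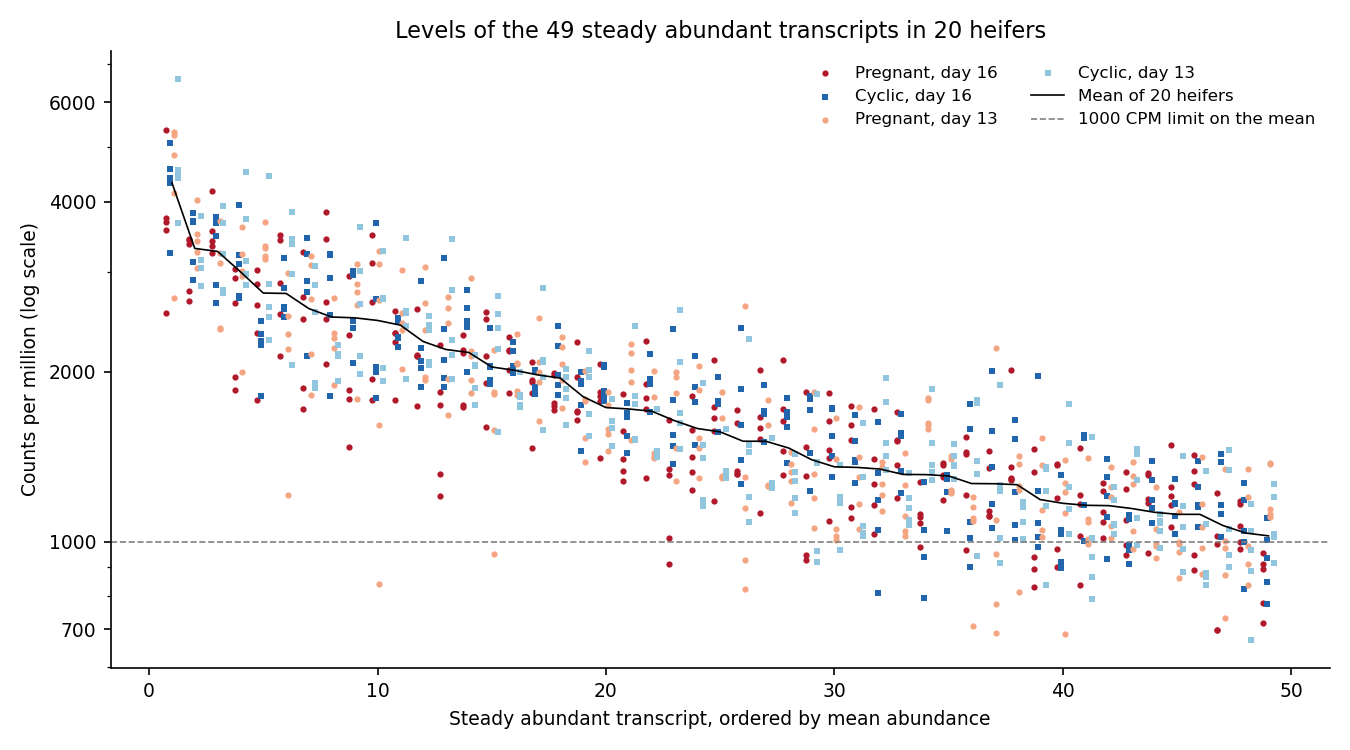
CPM (log scale) of the 49 transcripts, ordered by mean abundance, in each of 20 heifers, coloured by group, with the mean over heifers as a line and the limit of 1000 CPM on the mean as a dashed line. The means run from 1024 to 4321 CPM, the groups are mixed along the line, and single heifers lie well away from it.

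The tightest of the 49 was ENSBTAT00000046359, with an SD of 0.11 in log2(CPM + 1) over the 20 heifers. It had 1304, 1312, 1379, 1365 and 1183 CPM in pregnant day 16 heifers 1, 4, 6, 12 and 19, against 1046, 1290.5, 1222, 1309.8 and 1299 CPM in cyclic day 16 heifers 3, 7, 15, 16 and 17. At day 13 it had 1402, 1219.6, 1233, 1230.4 and 1419 CPM in pregnant heifers 2, 9, 11, 14 and 20, against 1362, 1419.7, 1487, 1290.1 and 1369 CPM in cyclic heifers 5, 8, 10, 13 and 18. Its highest heifer was 1.42 times its lowest, the groups overlapped, and its coefficient of variation was 7.70%.

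The most variable was ENSBTAT00000006297, with an SD of 0.50 over the 20 heifers and a highest heifer 4.37 times the lowest. It had 1779, 3118, 3489.8, 1938 and 2659 CPM in pregnant day 16 heifers 1, 4, 6, 12 and 19, against 1799, 2036, 1994, 3669 and 2692 CPM in cyclic day 16 heifers 3, 7, 15, 16 and 17. At day 13 it had 3265, 2681, 1606, 3106 and 839.9 CPM in pregnant heifers 2, 9, 11, 14 and 20, against 3267, 2686, 1923, 2027 and 2705 CPM in cyclic heifers 5, 8, 10, 13 and 18. Pregnant day 13 heifer 20 was the lowest, and the groups overlapped widely. Its group means nevertheless differed by at most 0.29 in log2(CPM + 1), so a small difference between groups did not mean a small spread within them.

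Over the 49, the pooled within-group SD of log2(CPM + 1) ran from 0.10 to 0.53 with a median of 0.25. The counting error alone had a median SD of 0.02, and in 49 of 49 the measured SD was more than 2 times it. At 878 or more reads per value, counting error is small by depth alone, and differences between animals, tissue samples and libraries cannot be told apart in this spread. The SD was under 0.2 in 14 and over 0.4 in 3 of the 49. The highest heifer was less than 2 times the lowest in 28, less than 3 times in 45 and less than 4 times in 48 of the 49. The biological coefficient of variation fitted by edgeR had a median of 0.184, from 0.120 to 0.332.

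The spread of the 49 was set beside that of other transcripts. The median within-group SD was 0.25 for the 49, 0.43 for the 5 transcripts that passed 1000 CPM and missed the difference limit, and 0.21 for 374 transcripts with means from 300 to under 1000 CPM that met the same limit. It was 0.31 over the 14826 transcripts kept by the filter on low counts, where the median counting SD was 0.18 and so made up more of the spread. The 374 less abundant transcripts thus did not have a larger median spread than the 49, although their median counting SD was 0.05 against 0.02. By group, the median SD of the 49 was 0.27 in pregnant and 0.19 in cyclic heifers at day 16, and 0.25 in pregnant and 0.27 in cyclic heifers at day 13. The medians over all 14826 were 0.28 in pregnant and 0.26 in cyclic heifers at day 16, and 0.32 in pregnant and 0.28 in cyclic heifers at day 13. These are descriptions, and no test of a difference in spread was made. Means of 5 heifers vary more where the spread is large, so the difference limit itself favours transcripts with a small spread. The part of the limit in these medians was not tested.

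**Figure D3:**
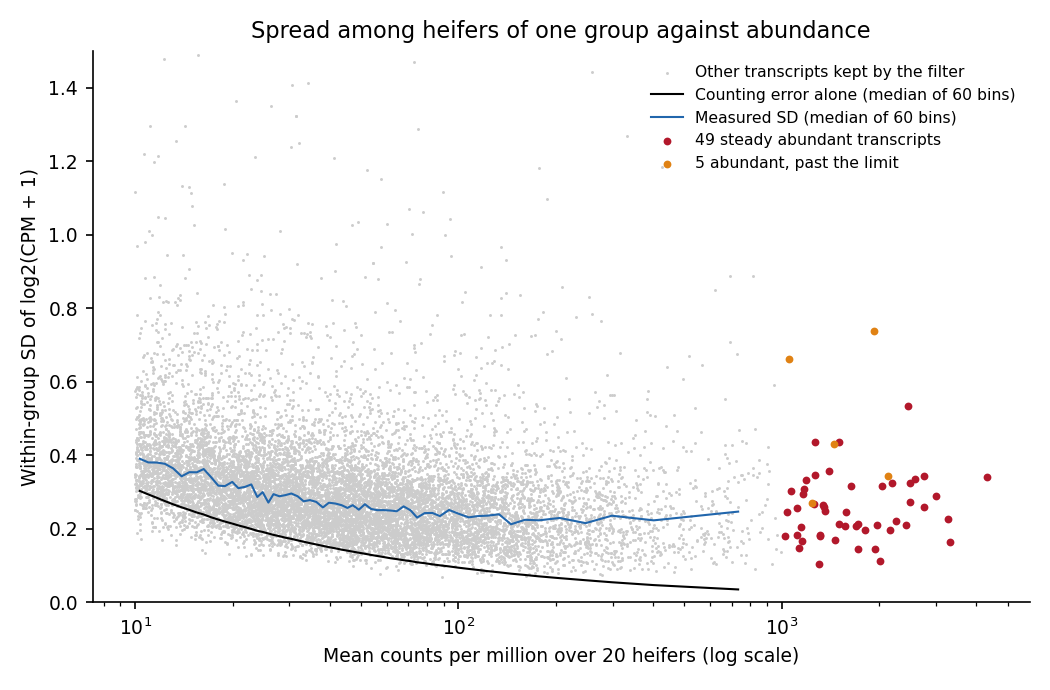
Within-group SD of log2(CPM + 1) against mean CPM (log scale) for the 11728 transcripts that averaged 10 CPM or more, with the 49 in red, the 5 other abundant transcripts in orange, and bin medians of the measured SD (blue line) and of counting error alone (black line). The SD of the 49 lies between 0.10 and 0.53, well above the counting error, and 13 transcripts lie above the axis.

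Ranks were taken among all 28054 transcripts in each heifer, with rank 1 for the highest count. Of the 49, 24 stayed within the first 54 ranks in every heifer, 43 within the first 100 and 49 within the first 150. Each heifer had 39 to 47 of them among its first 54 transcripts and 47 to 49 among its first 100. The distance from the best to the worst rank had a median of 32 and ran from 7 to 113. A level of at least 1000 CPM in every heifer was reached by 27 of the 49, so the limit on the mean was not a limit met by each animal.

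ENSBTAT00000008132 had the narrowest range of ranks, from 1 to 8, at a mean of 3305 CPM. ENSBTAT00000026158 had the widest, from 30 to 143, at a mean of 1068 CPM. ENSBTAT00000026158 had 699, 992, 699, 1219 and 1024 CPM in pregnant day 16 heifers 1, 4, 6, 12 and 19, against 1163, 1382, 1431, 1019 and 1118 CPM in cyclic day 16 heifers 3, 7, 15, 16 and 17. At day 13 it had 974, 1342, 873, 733 and 1001 CPM in pregnant heifers 2, 9, 11, 14 and 20, against 904, 948, 1341, 1051 and 1451 CPM in cyclic heifers 5, 8, 10, 13 and 18. The groups overlapped at both days. It ranked 114 or worse in 3 heifers, pregnant day 16 heifers 1 and 6 and pregnant day 13 heifer 14.

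The order of the 49 was similar but not fixed between animals. Across the 49 transcripts, which are not independent, the Spearman correlation between 2 heifers had a median of 0.778 over 190 pairs and ran from 0.449 to 0.952. Pairs of the same group had a median of 0.808 (40 pairs) and pairs of different groups 0.774 (150 pairs). The lowest was between pregnant day 16 heifer 6 and cyclic day 13 heifer 10. Pregnant day 16 heifer 6 had a median correlation of 0.607 with the others and pregnant day 13 heifer 14 had 0.640, against 0.733 to 0.842 for the other 18. The same 2 heifers had the lowest scaling factors by trimmed mean of M values (TMM), 0.936 and 0.963 against 0.988 to 1.02 in the other 18. Without them the median range of ranks was 27, and the median within-group SD was 0.23.

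**Figure D4:**
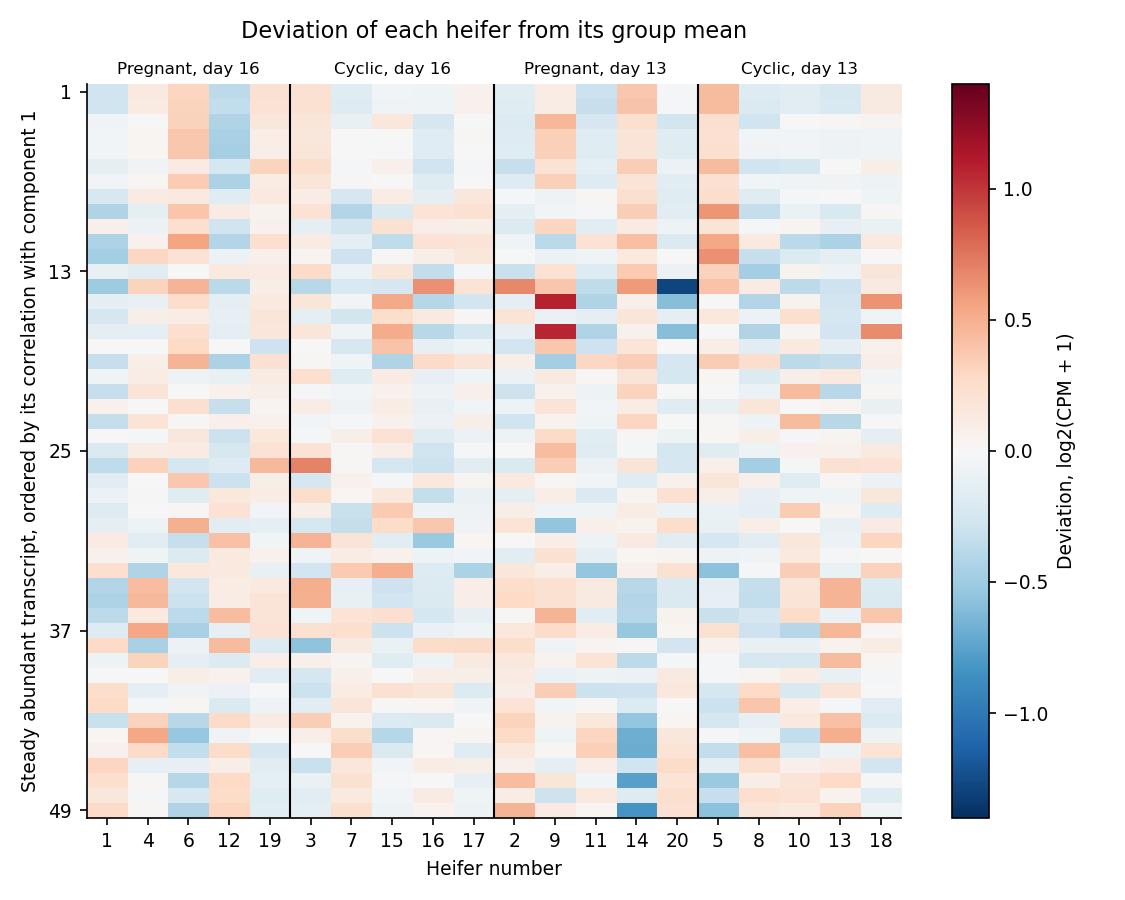
Deviation of each heifer from its group mean in log2(CPM + 1) (colour) for the 49 transcripts, ordered by their correlation with the first component, with heifers by group. Pregnant day 16 heifer 6, pregnant day 13 heifer 14 and cyclic day 13 heifer 5 are high in the upper rows and low in most of the lower rows. The rows were ordered from these same deviations, so this pattern follows largely from the order.

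Deviations from the group means were shared by blocks of transcripts. The first principal component held 34.1% of the variance of these deviations, the second 20.004% and the third 15.8%. With 1 identifier per set the first held 32.5%, and without pregnant heifers 6 and 14 it held 31.9%. Of the 49, 13 correlated at over 0.6 with the first component, 6 at under -0.6, and 13 had a correlation between -0.3 and 0.3. Pregnant day 13 heifer 14, pregnant day 16 heifer 6 and cyclic day 13 heifer 5 had scores of 2.02, 1.63 and 1.63, against -1.27 to 0.82 in the other 17. These 3 heifers came from 3 groups and from letters A, C and B. The 6 transcripts on the opposite side were below the group mean in these heifers. Transcripts and heifers were picked by the same component, so this follows largely from the choice. ENSBTAT00000028617 was one of the 6, by -0.68 in heifer 14, -0.53 in heifer 6 and only -0.03 in heifer 5. Over all 1176 pairs of the 49 the correlation of deviations had a median of 0.04, with 9.52% of pairs over 0.6 and 5.87% under -0.6. The 374 steady transcripts of the next abundance band had a median of 0.004, with 9.58% over 0.6 and 8.75% under -0.6. With 1 identifier per set, the remaining 42 had a median of 0.02 and 7.90% of 861 pairs over 0.6. No test of these shares was made.

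Among the 53 other transcripts that averaged 1000 CPM or more, those most like ENSBTAT00000028617 were ENSBTAT00000038678 and ENSBTAT00000019758, both in the 49. Over the 20 heifers their deviations had a Pearson correlation of 0.870 and 0.859 and a Spearman correlation of 0.728 and 0.797 with it. All 3 transcripts come from the same libraries and the same scaling in each heifer. Without pregnant heifers 6 and 14, the farthest from its median, Pearson values were 0.802 and 0.842. They were picked as the highest of 53, and their levels were 2490.3 CPM ± 556 and 1717 CPM ± 307 (SD, n = 20).

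Group differences of the 49 reached at most 0.60 in log2(CPM + 1), under the limit of 0.7 that chose them, and are given as values only. The median difference, pregnant minus cyclic, was -0.06 at day 16 and 0.04 at day 13, against -0.03 and -0.01 over the 14826 transcripts. Day 16 minus day 13 had a median of 0.03 in pregnant and 0.09 in cyclic heifers, against -0.002 and 0.008. The largest absolute difference among the 4 was under 0.2 in 11 of the 49, under 0.3 in 23 and under 0.5 in 46. The comparisons share groups, so these values are not independent of each other. Of all 54 transcripts at or above 1000 CPM, 90.7% met the limit, against 87.8% of 426 between 300 and 1000 CPM and 89.8% of the 14826, so steadiness by this limit was common at every abundance examined.

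**Figure D5:**
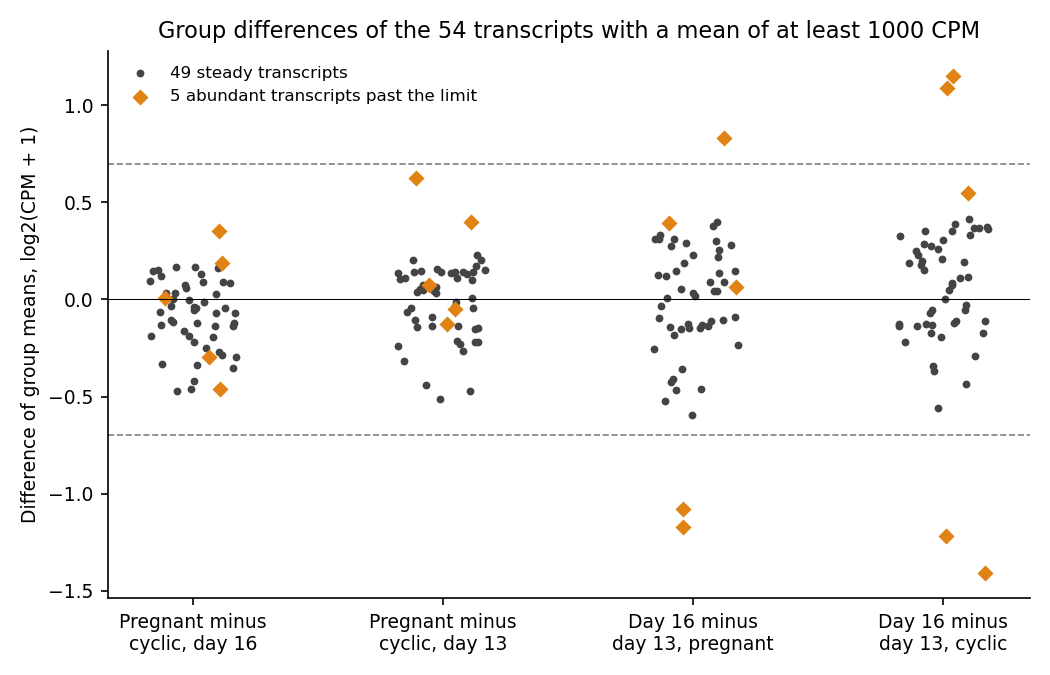
Difference of group means in log2(CPM + 1) for the 49 transcripts (grey) and the 5 others at or above 1000 CPM (orange) in the 4 comparisons, with the limits of 0.7 as dashed lines. The 49 lie within 0.60 of 0 by the way they were chosen, and the 5 others pass a limit between days and not between pregnant and cyclic heifers.

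The edgeR quasi-likelihood test was fitted to all 14826 transcripts, with Benjamini-Hochberg adjustment over all of them and a threshold of 0.05. Because the rule used the same comparisons, its counts are descriptions. Pregnant against cyclic at day 16 called 0 of the 49, with 0.958% of all transcripts called, and at day 13 it called 0 of the 49, with 0% of all called. At an unadjusted p under 0.05 there were 3 of the 49 at each day, 6.12%, against 6.76% of all transcripts at day 16 and 6.55% at day 13. DESeq2 also called 0 of the 49 in both, where it called 186 of all 14826 at day 16 and 3 at day 13. Day 16 against day 13 called 2 of the 49 in pregnant heifers, with 3.95% of all called, and 1 of the 49 in cyclic heifers, with 1.73% of all called. At an unadjusted p under 0.05 there were 11 of the 49, 22.4%, against 16.9% of all transcripts in pregnant heifers, and 16 of the 49, 32.7%, against 15.1% of all in cyclic heifers. Depth is higher for the 49 than for most transcripts, and its part in these shares was not tested. At least 1 of the 4 comparisons was called for 2 of the 49 transcripts, against 5.05% of all.

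Those 2 transcripts lay near the edges of the rule. ENSBTAT00000013663 had the largest group difference of the 49. It had 980.2, 1105, 1117, 1275 and 1078 CPM in pregnant day 16 heifers 1, 4, 6, 12 and 19, against 1782, 1609.8, 1620.3, 1796 and 1583 CPM in pregnant day 13 heifers 2, 9, 11, 14 and 20. It had 1048, 795, 1274, 941 and 941 CPM in cyclic day 16 heifers 3, 7, 15, 16 and 17, against 1365, 1327, 1867, 1492 and 1288 CPM in cyclic day 13 heifers 5, 8, 10, 13 and 18. The 5 heifers at day 16 lay below the 5 at day 13 in both states. The log2 fold change was -0.58 (SE 0.13, edgeR adjusted p = 0.00910) in pregnant and -0.55 (SE 0.13, edgeR adjusted p = 0.0258) in cyclic heifers. It remained called in at least 1 of the 4 comparisons with DESeq2 and without any 1 heifer.

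ENSBTAT00000000207, the transcript nearest above 1000 CPM with a mean of 1024 CPM, was called in pregnant heifers. It had 717, 893, 912, 779.9 and 955 CPM in pregnant day 16 heifers 1, 4, 6, 12 and 19, against 1376, 1144, 1104, 1370.4 and 1119 CPM in pregnant day 13 heifers 2, 9, 11, 14 and 20. The 2 groups did not overlap. The log2 fold change was -0.51 (SE 0.13, edgeR adjusted p = 0.0247). In cyclic heifers it ranged from 775 to 1099 CPM at day 16 and from 917 to 1266 CPM at day 13, and these overlapped (log2 fold change -0.22, SE 0.13, edgeR adjusted p = 0.431). The call was lost without pregnant day 16 heifer 1 or 12, and without pregnant day 13 heifer 2 or 14, which left 1 transcript of the 49 called.

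Just outside the rule, ENSBTAT00000020111 met the difference limit with a mean of 991 CPM and ranged from 858 to 1185 CPM. ENSBTAT00000004836 had a mean of 1448 CPM and a largest group difference of 0.83, between days in pregnant heifers, next to 0.60 for ENSBTAT00000013663 inside. The most abundant transcript outside the list was ENSBTAT00000005988, with 2128 CPM ± 1031 (SD, n = 20).

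Differences between file letters within groups were not used by the rule. In a fit with group and file letter, edgeR called 0 of the 49 for the file letter, with 0% of all 14826 transcripts called. At an unadjusted p under 0.05 there were 0 of the 49, 6 of the 374 in the next abundance band and 417 of all transcripts, 2.81%. DESeq2 called 0 of the 49 and 7 of all transcripts. With the file letter in the fit of the groups the same 2 transcripts of the 49 were called. That fit called 540 of all 14826 transcripts in at least 1 of the 4 comparisons, against 749 without the letter. The letter with 1 heifer gives no estimate of its own spread.

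Each heifer was left out in turn, and the rule was applied to the other 19. It gave the same 49 transcripts each time, so the list was the one chosen with all 20 heifers. The values in the heifer left out are descriptions and not an independent check. Other transcripts were not set beside them. In the heifer left out, 45 to 49 of the 49 lay within 0.7 of the mean of the other 19 in log2(CPM + 1). The median absolute deviation was 0.10 to 0.33. The largest deviation and the fewest transcripts within 0.7 were both in pregnant day 16 heifer 6. Between 40 and 47 of the 49 reached 1000 CPM in the heifer left out.

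The second library labelled pregnant day 16 heifer 12 was outside the choice. Its share of counts in the 49 was 8.73%, against 8.05% to 9.03% in the 5 pregnant day 16 heifers. In it, 48 of the 49 transcripts lay within the range of those 5 heifers and 1 lay below it. Over the 49 its median absolute difference from the library labelled heifer 19 was 0.077 in log2(CPM + 1), the smallest of 210 pairs of libraries. The next smallest was 0.095, between the library labelled heifer 19 and that of a cyclic day 16 heifer. Libraries of different groups thus came nearly as close. The second library differed from that of another pregnant day 16 heifer by 0.105. A small difference alone therefore does not identify the animal of a library. Between the first and second library labelled heifer 12 the difference was 0.29, rank 134 of 210, where the median pair had 0.25. The libraries labelled heifer 12 thus differed from each other by more than the median pair. The position of 48 transcripts within the range cannot be taken as independent of the library labelled heifer 19. Whether library 2 came from heifer 12 or from heifer 19 was not tested, and neither was the label of library 1. The values given above for heifer 12 are those of library 1. The labels of both libraries are in doubt because the libraries labelled heifer 12 differed by more than the median pair. Values that use either library carry that doubt. With library 2 in place of library 1, or both summed, the rule gave the same 49 transcripts.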

How the data were processed

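Endometrial RNA of 20 heifers was sequenced as single-read Illumina libraries, per the labels' protocols. The authors deposited raw read counts per Ensembl transcript, whole numbers with no header. The submitters' processing notes name CASAVA, while for aligner, counter, strand setting, annotation and build the entry is not given in the sources used here. Groups and heifer numbers came from the labels, and no number is shared between groups. The transcripts, lists and rules were chosen with earlier results of these data known. The 15 gene lists, cell type markers included, could not be tested without gene names.

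CPM used the library total, log2 values a pseudocount of 1, and group fits TMM factors. The edgeR model (4.0.16, R 4.3.3; filterByExpr, minimum count 10, total count at least 15) had 4 group means, with library 2 of heifer 12 left out, or added the file letter. It was tested on simulated data. The SE of a log2 fold change was its absolute value divided by the square root of the F statistic of the edgeR test. DESeq2 (1.42.0) and leaving out each heifer were among the alternatives. Named transcripts were the extremes of abundance, SD and rank range, those next to each limit, the most abundant one outside the list, and the 2 most like the most abundant. Copies of 1 molecule cannot be told from separate molecules in these counts, so intervals cover counting error only.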

Additional observations from a re-analysis of the deposited data

Results flagged for a closer look

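The share of counts and the levels of the named transcripts gave 52 groups of 5 values, and each was examined for a heifer far from the other 4. Chance gives about 1 in 20. There were 3, and none was in the share or in the named transcripts that belong to the 49. ENSBTAT00000004836 had 2385 CPM in cyclic day 16 heifer 17, against 1229.7 to 1462 CPM in the other 4. ENSBTAT00000005988 had 2116 CPM in library 1 of pregnant day 16 heifer 12, against 999 to 1243 CPM in the other 4. The second library labelled heifer 12 had 1100 CPM, inside that range. ENSBTAT00000005988 also had 2218 CPM in cyclic day 13 heifer 18, against 3148 to 3432 CPM in the other 4. Over all 196 sets of the 49 transcripts and 4 groups, 11 values stood apart in this way, close to the rate that chance gives, and 4 of them were in cyclic day 13 heifer 5.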

How the results depend on the processing

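No paired analysis was possible because the groups share no heifer numbers. Leaving out each heifer gave 49 transcripts each time, a share of 8.78% to 8.85%, a median within-group SD of 0.23 to 0.26, a median range of ranks of 29 to 32, 1 to 2 transcripts called between groups and 0 called for the file letter. The list grew to 177 with a limit of 500 CPM and shrank to 16 with 2000 CPM, and was 46 to 50 with difference limits of 0.5 and 1.0. Its members were the same 49 under TMM scaling, DESeq2 size factors, a pseudocount of 0.5, the file letter in the fit and either treatment of heifer 12. The 2 other alternatives were chosen after the data had been seen. With 1 identifier per set the share was 7.70%, and without pregnant heifers 6 and 14 the median range of ranks was 27. Calls between groups numbered 2 of the 49 under DESeq2 (1094 of all transcripts), without the filter (684) and with the libraries of heifer 12 summed (864), against 2 and 749 as reported. They numbered 3 (952 of all) with its library 2 alone, where ENSBTAT00000001034 was added. Each value rests on 878 or more reads and each group on 5 heifers, and how the assignment of reads between transcripts bears on the levels was not tested.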
